A study of Mus musculus with 12 samples.

Results

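The genes described here encode the nuclear subunits of the mitochondrial respiratory chain, with some of the factors that assemble it, measured in hearts of mouse embryos that lack 1 or both of the cardiac transcription factors Nkx2-5 and Tbx5. Members were all genes whose platform symbol starts with Nduf, Sdha to Sdhd, Uqcr, Cox4, Cox5, Cox6, Cox7, Cox8 or Atp5 and that stand on a probe set with exactly 1 symbol, with the brightest probe set kept for each gene. That gave 93 of the 19938 genes measured, on 119 probe sets before 1 per gene was kept. Hearts were dissected at stage E8.75, counted in days of embryonic development, and formed 4 groups of 3 arrays, which the titles call biological replicates: Tbx5KO;Nkx2-5KO (double KO), Nkx2-5KO, Tbx5KO and WT. The labels do not give the part of each gene that was removed, the strain, the driver of any recombination or how many embryos were pooled on an array. Where nothing says that arrays came from separate embryos, the p-values measure only the spread between these arrays.

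The respiratory chain passes electrons from NADH and succinate to oxygen through complexes I to IV, which with the exception of complex II pump protons out of the mitochondrial matrix, and complex V uses the returning protons to make ATP. Complex I takes electrons from NADH, complex II from succinate, complex III hands them to cytochrome c and complex IV to oxygen. Most subunits are encoded in the nucleus, the rest by mitochondrial DNA, and several complex IV subunits exist as a widely expressed and a muscle form. The early embryonic heart relies much on glycolysis, and its oxidative machinery grows as development proceeds. Cox6a2, the heart and skeletal muscle form of subunit 6a, is the muscle marker among the members.

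By complex, 41 members belong to complex I (6 core subunits, 28 accessory subunits and 7 assembly factors), 8 to complex II (4 subunits and 4 assembly factors), 8 to complex III, 19 to complex IV and 17 to complex V. The 13 subunits encoded by mitochondrial DNA were listed too, and 0 of them stood on a probe set with 1 symbol. The assembly factors Ndufaf1 to Ndufaf7 and Sdhaf1 to Sdhaf4 entered through their symbols and are described as a class of their own. The values are the log2 expression values that the authors deposited, so a change is a log2 difference between group means, given as double or single KO minus WT and followed by ± its standard error (SE) from limma with n = 3 arrays a group. A gene was called higher or lower at a p under 0.05 after Benjamini-Hochberg adjustment over the 19938 genes of a comparison. Levels are on the log2 scale as well, and they are compared only between arrays for the same probe set.

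Array medians ran between 8.05 and 8.25. The standard deviation over probe sets was 2.05 to 2.10 on double KO arrays, 2.13 to 2.16 on Nkx2-5 KO arrays, 2.13 to 2.16 on Tbx5 KO arrays and 2.17 to 2.19 on WT arrays, so the double KO arrays had the narrowest spread of values. The probe set of Nkx2-5 read 8.97 to 9.21 in double KO, 8.72 to 9.13 in Nkx2-5 KO, 9.31 to 9.38 in Tbx5 KO and 9.33 to 9.36 in WT hearts. The probe set of Tbx5 read 10.31 to 10.83 in double KO, 10.15 to 10.53 in Nkx2-5 KO, 10.42 to 10.73 in Tbx5 KO and 9.90 to 10.15 in WT hearts, and thus was not lower where Tbx5 is labelled as knocked out. As the removed part is not stated, a probe set outside it checks nothing, and the groups are named as labelled. The 12 cardiac muscle markers had mean levels of 13.21 to 13.24 on double KO, 13.20 to 13.38 on Nkx2-5 KO, 13.27 to 13.35 on Tbx5 KO and 13.22 to 13.28 on WT arrays, so the list's mean lay between 13.20 and 13.38 on all arrays. Its genes split: Myh6 (-0.81 ± 0.14, adjusted p = 0.00121) and Actn2 (-0.66 ± 0.15, adjusted p = 0.00696) were lower in double KO than in WT hearts, and Myh7 (0.40 ± 0.10, adjusted p = 0.0111), Ttn (0.31 ± 0.09, adjusted p = 0.0243) and Tnnt2 (0.23 ± 0.08, adjusted p = 0.046) were higher.

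In double KO hearts 73 of the 93 respiratory chain genes were lower than in WT hearts, 2 were higher and 18 were not called. Over all 19938 genes, 14.4% were called lower and 9.05% higher in the same comparison. The median change of the members was -0.52, beside 0.064 over all genes, and 87 of the 93 differences were below 0. On all 3 double KO arrays 85 members read below all 3 WT arrays, which held for 18.7% of all genes. Complex IV had the lowest share of its members called lower, and the 2 members that rose stand there too. The part of signal level and of tissue-type isoforms in this ranking was not tested. In tissue, fewer cells of a type and less RNA per cell cannot be told apart.

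**Figure D1:**
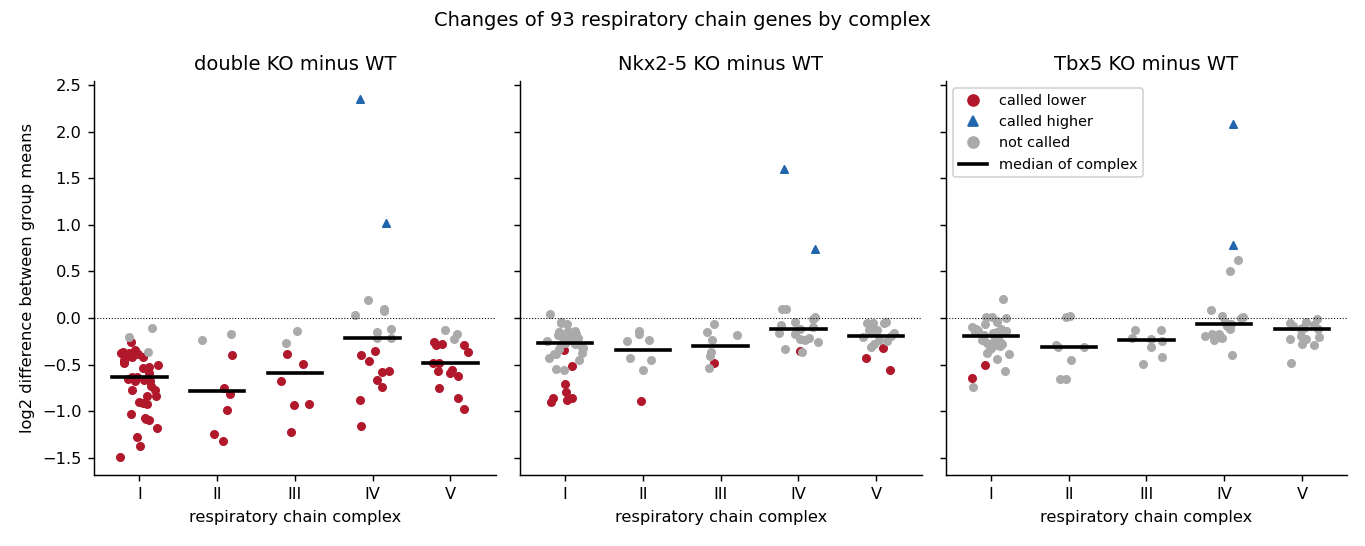
Each point is 1 of the 93 respiratory chain genes, placed by complex (horizontal axis) and by its log2 difference from WT (vertical axis) in double KO, Nkx2-5 KO and Tbx5 KO hearts; red points were called lower, blue triangles higher, grey points neither, and black bars are medians of a complex. In double KO hearts 73 points are called lower, against 14 in Nkx2-5 KO and 2 in Tbx5 KO hearts, and the 2 blue triangles in each panel are Cox4i2 and Ndufa4l2.

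The change in double KO hearts depended on signal level across the array, which bears on genes as bright as these. Member probe sets had a median level of 11.97, with quartiles of 10.93 and 12.84, while the median over all genes was 8.36. Among the 1739 genes within those quartiles, members included, 41.1% were called lower in double KO hearts. Between levels of 11 and 12 the 23 members had a median change of -0.73, beside -0.21 for the 1118 other genes, and 20 members and 444 other genes were lower. Between 12 and 13 it was -0.48 for 29 members and -0.19 for 503 others, with 26 and 201 called lower. From 13 upward it was -0.25 for 16 members and -0.056 for 174 others, with 8 and 40 called lower. In each of the 5 bands from 9 upward the members' median thus lay below that of the other genes. When the arrays were quantile normalized again, 59 members were lower and 2 higher, and the members' median was -0.38, beside -0.032 over all genes. The part of the narrower spread of double KO arrays in the members' change was not tested.

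**Figure D2:**
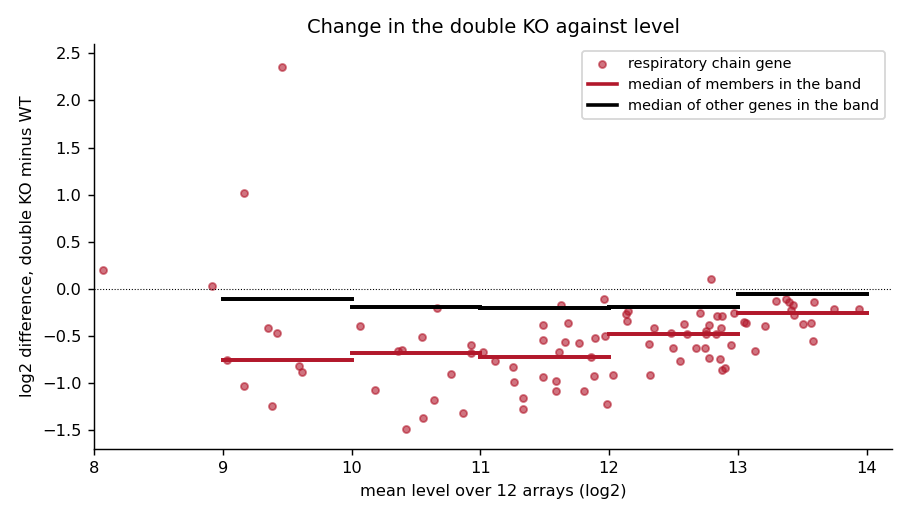
Each red point is a respiratory chain gene with its mean level over 12 arrays (log2, horizontal axis) and its log2 difference, double KO minus WT (vertical axis); red bars are the median of members and black bars the median of all other genes in a band of levels. The red bar lies below the black one in each band from 9 upward, at -0.73 against -0.21 between 11 and 12, and Cox7b2, at a level of 5.55, lies left of the axis.

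Complex I, the entry of electrons from NADH, had 38 of 41 members lower in double KO hearts, with a median of -0.63. Its largest change was that of Ndufb2, an accessory subunit of the arm that sits in the membrane, at probe set 10537452. Ndufb2 read 9.75, 9.58 and 9.64 in double KO, 10.17, 10.35 and 10.21 in Nkx2-5 KO, 10.61, 10.67 and 10.65 in Tbx5 KO, and 11.34, 11.04 and 11.07 in WT hearts. The 4 groups did not overlap, with double KO lowest, then Nkx2-5 KO, then Tbx5 KO. Against WT it changed by -1.49 ± 0.10 in double KO (2.81-fold, adjusted p = 4.01e-06), by -0.90 ± 0.10 in Nkx2-5 KO (adjusted p = 0.000677) and by -0.51 ± 0.10 in Tbx5 KO hearts (adjusted p = 0.0214). The Tbx5 KO call ended without WT replicate 1 or any 1 of the 3 Tbx5 KO arrays and in a fit of only the arrays compared (adjusted p 0.0573 to 0.0809).

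All 6 core complex I subunits measured, which belong to the conserved part of the enzyme that moves the electrons, were lower in double KO hearts, with a median of -0.66. Ndufs1, the largest of the iron-sulfur subunits, read 11.53, 11.19 and 11.42 in double KO and 12.27, 12.47 and 12.18 in WT hearts. Its double KO and WT arrays did not overlap, at a change of -0.92 ± 0.11 (adjusted p = 0.000135). Ndufv1, which binds NADH and the first flavin cofactor, changed by -0.77 ± 0.11 (adjusted p = 0.000439), and the remaining 4, Ndufs8, Ndufs7, Ndufv2 and Ndufs3, by -0.66, -0.65, -0.52 and -0.34. The Ndufs3 call ended under 5 alternatives, among them without any 1 of the 3 WT arrays (0.0523 to 0.24).

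Of 28 accessory subunits, which surround that core, 25 were lower, with a median of -0.53. After Ndufb2 the largest change was that of Ndufs5, with 11.35, 11.21 and 10.86 in double KO and 12.46, 12.36 and 11.86 in WT hearts. All 3 double KO arrays lay below the lowest WT array, at -1.09 ± 0.17 (adjusted p = 0.000768). Ndufs6, needed late in assembly, changed by -0.84 ± 0.09 (adjusted p = 4.33e-05), and Ndufab1, which also serves as the mitochondrial acyl carrier protein, by -0.67 ± 0.13 (adjusted p = 0.00233). The 3 accessory subunits not called were Ndufa6 (-0.36, adjusted p = 0.0516), Ndufa7 (-0.20, adjusted p = 0.351) and Ndufv3 (-0.11, adjusted p = 0.507). Ndufv3, a small subunit next to Ndufv1, read 11.91, 11.99 and 11.56 in double KO and 11.85, 11.99 and 11.95 in WT hearts, so these groups overlapped.

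The 11 assembly factors, which help build complexes I and II and leave the finished enzyme, were all lower in double KO hearts, with a median of -1.09. The other 82 members had a median of -0.48, with 62 lower and 2 higher. Assembly factor probe sets had mean levels of 9.03 (Sdhaf2) to 11.59 (Ndufaf4), all below the members' median level of 11.97. The part of signal level in the difference between these classes was not tested. Ndufaf1, which joins parts of the membrane arm, read 9.98, 9.74 and 9.75 in double KO, 10.27, 10.60 and 10.14 in Nkx2-5 KO, 10.97, 10.93 and 10.69 in Tbx5 KO, and 11.16, 11.37 and 11.06 in WT hearts. Double KO arrays lay below all others, Nkx2-5 KO arrays below Tbx5 KO arrays, and Tbx5 KO arrays below WT arrays. Ndufaf1 changed by -1.37 ± 0.13 in double KO hearts (2.59-fold, adjusted p = 3.61e-05). Ndufaf2, a chaperone of late assembly, changed by -1.28 ± 0.20 (adjusted p = 0.000592) and Ndufaf5, an enzyme that modifies a core subunit, by -1.18 ± 0.14 (adjusted p = 0.000128). Ndufaf4, Ndufaf7 and Ndufaf6 changed by -1.09, -1.08 and -1.03. Ndufaf3 changed least of the complex I factors, by -0.42 ± 0.12 (adjusted p = 0.0212), and its call ended without WT replicate 1 or 2 or double KO replicate 3 (0.0618 to 0.079).

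Complex II, which is also an enzyme of the citric acid cycle, had 6 of 8 members lower in double KO hearts, with a median of -0.79. They were all 4 assembly factors (median -1.03) and 2 of 4 subunits (median -0.32). Sdhaf1, which helps to fit iron-sulfur clusters into Sdhb, read 10.76, 10.04 and 9.98 in double KO, 10.37, 10.88 and 10.81 in Nkx2-5 KO, 10.97, 11.14 and 10.68 in Tbx5 KO, and 11.64, 11.38 and 11.72 in WT hearts. All KO arrays lay below all WT arrays, while the KO groups overlapped each other. The changes were -1.32 ± 0.21 in double KO (adjusted p = 0.000655) and -0.89 ± 0.21 in Nkx2-5 KO hearts (adjusted p = 0.0308), with -0.65 in Tbx5 KO hearts not called.

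Sdhb, the iron-sulfur subunit itself, read 11.09, 10.32 and 10.81 in double KO and 11.87, 11.67 and 11.65 in WT hearts, and changed by -0.99 ± 0.17 (adjusted p = 0.0011). Sdhd, a membrane anchor, changed by -0.39 ± 0.11 (adjusted p = 0.0211), a call that ended under 4 alternatives, among them without WT replicate 3 and without double KO replicate 1 (0.0569 to 0.107). Sdha, the flavin subunit that oxidizes succinate, was -0.24 ± 0.09 (adjusted p = 0.0757) and Sdhc, the other anchor, -0.17 ± 0.10 (adjusted p = 0.232). Sdhaf4, which binds Sdha during assembly, read 8.44, 8.84 and 8.64 in double KO, 9.55, 9.62 and 9.17 in Nkx2-5 KO, 9.61, 9.48 and 9.61 in Tbx5 KO, and 9.53, 10.13 and 9.98 in WT hearts. Here the double KO arrays stood apart below the other 9, at -1.24 ± 0.16 against WT (adjusted p = 0.000212). A second, dimmer Sdhaf4 probe set (10345099, mean level 7.92) changed by -0.013 ± 0.098 in the same comparison (adjusted p = 0.938 in the fit of all probe sets), so the 2 probe sets disagree.

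Complex III, which passes electrons from ubiquinol to cytochrome c, had 6 of 8 members lower in double KO hearts, with a median of -0.59. Uqcr10, a small subunit next to cytochrome c1 and the iron-sulfur protein, read 11.28, 11.36 and 11.16 in double KO, 11.905, 12.107 and 11.997 in Nkx2-5 KO, 12.22, 12.08 and 12.24 in Tbx5 KO, and 12.48, 12.53 and 12.46 in WT hearts. The double KO arrays lay below all others and the WT arrays above all others, while the single KO groups overlapped. The double KO change was -1.22 ± 0.09 (2.33-fold, adjusted p = 5.91e-06). The small subunits Uqcr11 and Uqcrq changed by -0.94 ± 0.15 (adjusted p = 0.000683) and -0.92 ± 0.13 (adjusted p = 0.000267), the core proteins Uqcrc1 and Uqcrc2 by -0.67 and -0.50, and Uqcrfs1, the Rieske iron-sulfur protein, by -0.39 ± 0.09 (adjusted p = 0.00584, and 0.0594 when quantile normalized again). Uqcrb was -0.27 ± 0.10 (adjusted p = 0.0711) and Uqcrh, the hinge protein, -0.14 ± 0.08 (adjusted p = 0.207). Of the 3 Uqcrb probe sets, the 2 dimmer ones were called, at -0.42 and -0.29.

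Complex V, the ATP synthase, had 14 of 17 members lower in double KO hearts, with a median of -0.48. In the catalytic F1 head 3 of 5 subunits were lower (median -0.26), and in the stalks, c ring and membrane part 11 of 12 (median -0.48). Atp5g1, 1 of 3 genes for the same c ring subunit, read 10.997, 11.152 and 11.183 in double KO, 11.51, 11.55 and 11.55 in Nkx2-5 KO, 11.81, 11.32 and 11.70 in Tbx5 KO, and 12.179, 11.996 and 12.106 in WT hearts. All KO arrays lay below all WT arrays, and double KO arrays below all others. Atp5g1 changed by -0.98 ± 0.12 in double KO hearts (1.98-fold, adjusted p = 0.000134), while the other c ring genes, Atp5g2 and Atp5g3, changed by -0.29 ± 0.09 (adjusted p = 0.0258) and -0.28 ± 0.08 (adjusted p = 0.0295). The calls of Atp5g2 and Atp5g3 ended under 7 and 8 alternatives, among them without WT replicate 1 or 2 and without double KO replicate 1 (0.05 to 0.324 and 0.0567 to 0.0912).

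Atp5k, the e subunit of the membrane part, changed by -0.86 ± 0.09 (adjusted p = 4.86e-05) and Atp5e, the epsilon subunit of the head, by -0.75 ± 0.09 (adjusted p = 0.000141). Atp5b, the catalytic beta subunit, read 13.40, 13.29 and 13.29 in double KO, 13.53, 13.36 and 13.44 in Nkx2-5 KO, 13.44, 13.45 and 13.45 in Tbx5 KO, and 13.50, 13.52 and 13.48 in WT hearts. Its double KO arrays lay below the WT arrays by little, and the difference of -0.17 ± 0.08 was not called (adjusted p = 0.138). Its partner Atp5a1, the alpha subunit, changed by -0.26 ± 0.09 (adjusted p = 0.0449), a call that ended under 13 alternatives (0.0503 to 0.39), and Atp5c1, the gamma subunit that turns inside the head, by -0.13 ± 0.08 (adjusted p = 0.241), which was not called.

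**Figure D3:**
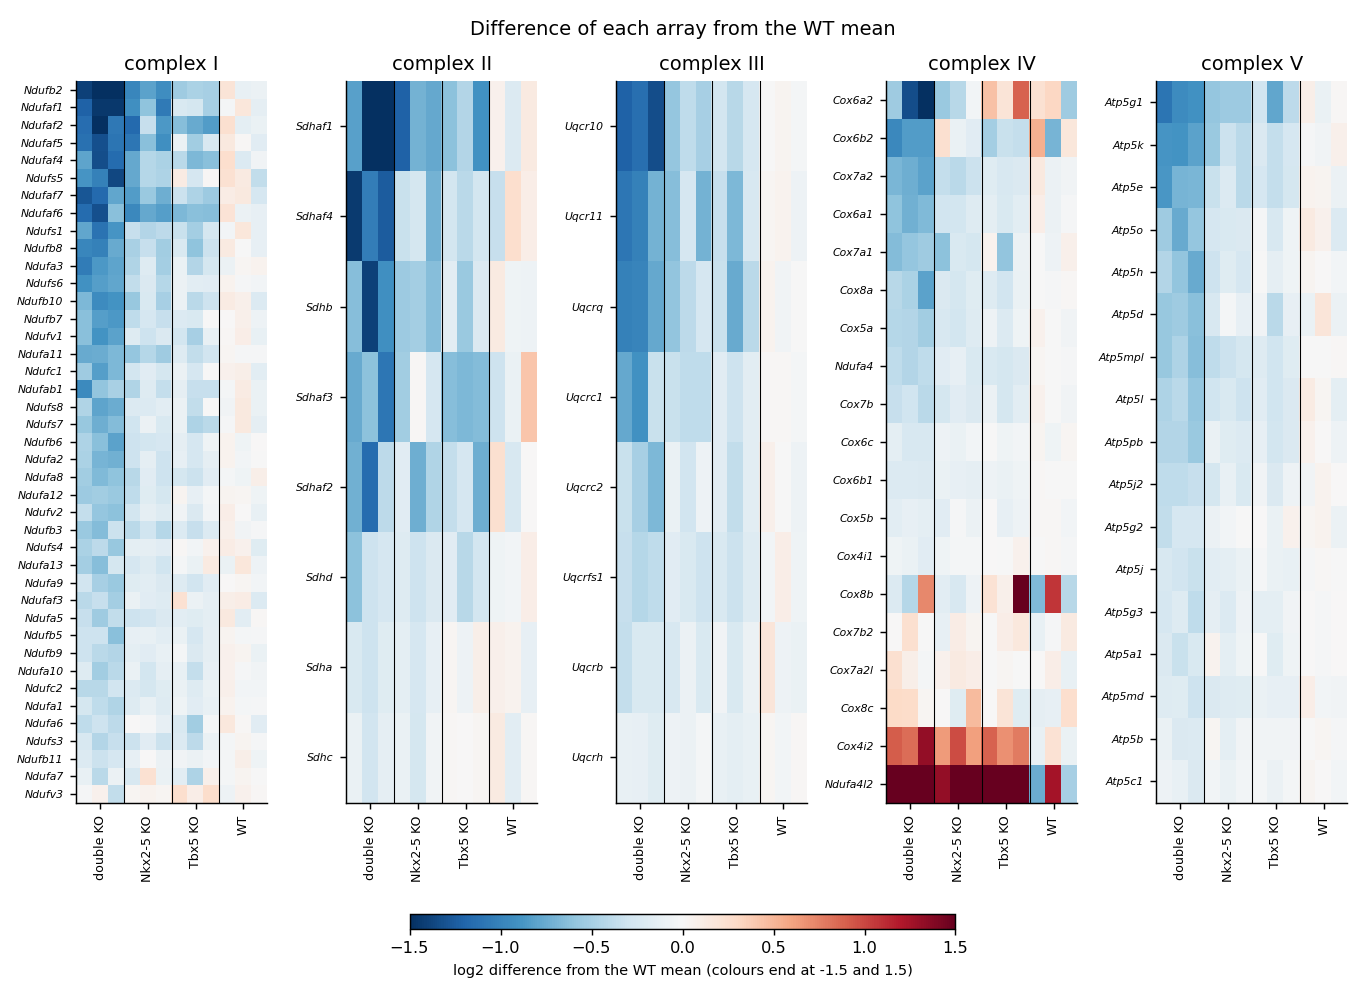
Every row is a respiratory chain gene and every column 1 array, 3 each of double KO, Nkx2-5 KO, Tbx5 KO and WT hearts; colour gives the log2 difference from the WT mean, blue lower and red higher, and ends at -1.5 and 1.5. Genes run down each complex by their double KO change, with Ndufb2 first in complex I and Ndufa4l2 last in complex IV.

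Complex IV, cytochrome c oxidase, had 9 of 19 members lower and 2 higher in double KO hearts, with a median of -0.21. Of its 10 widely expressed subunits 6 were lower, of the 3 muscle-type isoforms 2 were lower, and of 5 isoforms of other tissues 1 was lower and 2 were higher. Cox7a2l, a factor that joins complexes III and IV into larger assemblies, was 0.10 ± 0.09 (adjusted p = 0.461).

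Cox6a2, the muscle form of subunit 6a (probe set 10568369, chromosome 7), read 11.04, 10.25 and 9.95 in double KO, 11.03, 11.16 and 11.54 in Nkx2-5 KO, 12.01, 11.77 and 12.47 in Tbx5 KO, and 11.80, 11.88 and 11.04 in WT hearts. The spread within groups was wide, and double KO replicate 1 and WT replicate 3 were equal to 2 decimals. In double KO hearts Cox6a2 was lower than in WT hearts (-1.16 ± 0.29, 2.24-fold, adjusted p = 0.011) and lower than in Tbx5 KO hearts (-1.67 ± 0.29, 3.18-fold, adjusted p = 0.00275). It was -0.34 ± 0.29 in Nkx2-5 KO (adjusted p = 0.638) and 0.51 ± 0.29 in Tbx5 KO hearts (adjusted p = 0.461), neither of them called. Tbx5 KO minus Nkx2-5 KO came to 0.84 ± 0.29 (adjusted p = 0.188), though the 2 groups did not overlap.

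Its widely expressed partner Cox6a1 read 12.81, 12.69 and 12.74 in double KO, 13.11, 13.13 and 13.21 in Nkx2-5 KO, 13.26, 13.18 and 13.25 in Tbx5 KO, and 13.50, 13.32 and 13.39 in WT hearts. Double KO arrays lay below all others and WT arrays above all others. The change was -0.66 ± 0.08 in double KO hearts (adjusted p = 0.000163), so both forms of subunit 6a were lower there. Of the subunit 7a pair, the muscle form Cox7a1 changed by -0.58 ± 0.15 in double KO hearts (adjusted p = 0.0143, and 0.0608 when quantile normalized again). The other form, Cox7a2, read 12.42, 12.36 and 12.30 in double KO and 13.24, 13.01 and 13.05 in WT hearts, at -0.74 ± 0.09 (adjusted p = 9.96e-05). Of the subunit 8 genes, the common Cox8a changed by -0.57 ± 0.11 (adjusted p = 0.00194), the muscle form Cox8b was 0.028 ± 0.46 (adjusted p = 0.973) and the testis form Cox8c 0.20 ± 0.17 (adjusted p = 0.421). Cox8b varied more within double KO, Tbx5 KO and WT hearts than within Nkx2-5 KO hearts, at 8.58, 8.36 and 9.50 in double KO, 8.63, 8.54 and 8.71 in Nkx2-5 KO, 9.01, 8.86 and 10.39 in Tbx5 KO, and 8.13, 9.87 and 8.37 in WT hearts.

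The 2 members that rose are isoforms known for high levels under low oxygen in other cells. Ndufa4l2, a relative of the complex IV subunit Ndufa4, read 10.11, 10.15 and 10.65 in double KO, 9.27, 9.69 and 9.68 in Nkx2-5 KO, 10.33, 9.47 and 10.29 in Tbx5 KO, and 7.21, 9.19 and 7.44 in WT hearts. Every KO array lay above every WT array, of which replicate 2 stood closest to the KO arrays. The changes were 2.35 ± 0.41 in double KO (5.11-fold, adjusted p = 0.00138), 1.60 ± 0.41 in Nkx2-5 KO (adjusted p = 0.049) and 2.08 ± 0.41 in Tbx5 KO hearts (adjusted p = 0.0213). The Nkx2-5 KO call ended under 12 of 21 alternatives (adjusted p 0.0573 to 0.19), and the Tbx5 KO call without WT replicate 1 or 3 or Tbx5 KO replicate 1 or 3 and in a fit of only the arrays compared (0.0801 to 0.0921). Ndufa4 itself changed by -0.40 ± 0.08 in double KO hearts (adjusted p = 0.00249).

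Cox4i2, the lung form of subunit 4, read 9.43, 9.36 and 9.85 in double KO, 9.17, 9.50 and 9.14 in Nkx2-5 KO, 9.41, 9.21 and 9.30 in Tbx5 KO, and 8.41, 8.74 and 8.43 in WT hearts. All 9 KO arrays lay above all WT arrays, and the KO groups overlapped. Cox4i2 changed by 1.02 ± 0.15 in double KO (2.03-fold, adjusted p = 0.000369), by 0.74 ± 0.15 in Nkx2-5 KO (adjusted p = 0.0167) and by 0.78 ± 0.15 in Tbx5 KO hearts (adjusted p = 0.0159). Both single KO calls ended without WT replicate 1 or 3, and without Nkx2-5 KO replicate 1 (0.0567 to 0.0749) or Tbx5 KO replicate 1 or 3 (0.0514 to 0.0689). Its widely expressed partner Cox4i1 read 13.34, 13.31 and 13.24 in double KO and 13.40, 13.43 and 13.39 in WT hearts, a difference of -0.11 ± 0.08 that was not called (adjusted p = 0.303).

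Hif1a, which encodes the oxygen-sensitive regulator of the response to low oxygen, read 11.24 to 11.33 in double KO, 11.22 to 11.47 in Nkx2-5 KO, 11.57 to 11.75 in Tbx5 KO and 11.71 to 11.73 in WT hearts. Against WT it was lower in double KO (-0.44 ± 0.09, adjusted p = 0.00359) and Nkx2-5 KO hearts (-0.38 ± 0.09, adjusted p = 0.0319). It was not called in Tbx5 KO hearts. The part of Hif1a in the rises of Ndufa4l2 and Cox4i2 was not tested. Cox6b2, the testis form of subunit 6b, was lower in double KO than in WT hearts (-0.88 ± 0.23, adjusted p = 0.0159), and that call ended without WT replicate 1 or 3 and in a fit of only the arrays compared (0.0569 to 0.0633). Its partner Cox6b1 was -0.21 ± 0.07 (adjusted p = 0.0552). The testis form Cox7b2 had the dimmest probe set of the members, at 5.49 to 5.74 in double KO and 5.39 to 5.63 in WT hearts, and was 0.078 ± 0.11.

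**Figure D4:**
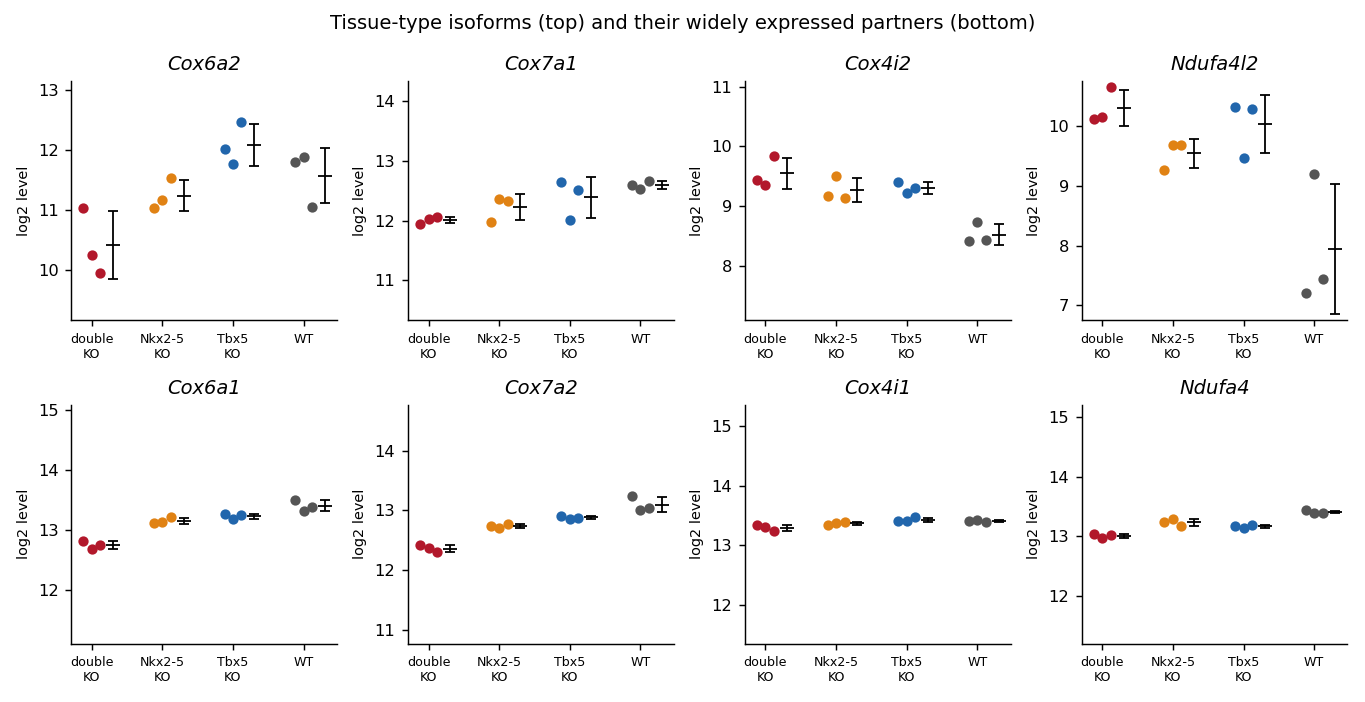
Log2 levels (vertical axes, all spanning the same number of units) of 4 tissue-type isoforms (top) and their widely expressed partners (bottom); points are arrays of double KO, Nkx2-5 KO, Tbx5 KO and WT hearts, and bars are the mean ± SD of 3 arrays. Cox6a2 and Cox7a1 are lower in double KO than in WT hearts, Cox4i2 and Ndufa4l2 are higher in all 3 KO groups, and Cox4i1 reads between 13.24 and 13.47 on all arrays.

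Promoters of a few members show how the letters known from respiratory gene promoters are arranged. RefSeq promoter windows of build GRCm38.p6 were available for 77 of the 93 members. The 16 without a window, among them Cox6a2, Cox4i2 and Ndufa4l2, were not searched. The 250 bases before the start were searched on both strands. The letters were those bound by the respiratory factors NRF1 and GABPA (CCGGAAG) and by YY1 (AAGATGG). Those bound by CREB at the CRE (TGACGTCA) and by estrogen-related receptors (AAGGTCA) were included. The NRF1 letters are GC-rich and allow any base at 1 position, so a match need not read the same on both strands. T-box (GGTGTGA) and NKX (TNAAGTG) letters were searched too. The sequences below are those of Ndufb2, the largest fall, of Ndufs5 and Cox6a1, and of Cox7a1, the muscle form of subunit 7a. Ndufs5 and Cox6a1 were picked among the largest falls with NRF1 letters in a window clear of other genes. Their NRF1 matches were thus fixed by the choice, and Ndufa5, picked by the same rule, is not printed. Capitals mark the matched letters and positions count back from the start.
Ndufb2: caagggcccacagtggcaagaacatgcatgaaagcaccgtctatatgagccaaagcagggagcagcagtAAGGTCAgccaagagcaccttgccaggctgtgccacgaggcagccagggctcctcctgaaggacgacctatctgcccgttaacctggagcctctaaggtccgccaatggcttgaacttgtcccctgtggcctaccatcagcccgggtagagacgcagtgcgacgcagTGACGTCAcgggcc
Ndufs5: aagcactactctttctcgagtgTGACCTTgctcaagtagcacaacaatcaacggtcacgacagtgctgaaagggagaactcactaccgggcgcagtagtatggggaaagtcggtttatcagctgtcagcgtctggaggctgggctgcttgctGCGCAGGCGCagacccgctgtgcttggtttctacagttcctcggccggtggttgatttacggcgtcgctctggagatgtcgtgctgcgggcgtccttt
Cox6a1: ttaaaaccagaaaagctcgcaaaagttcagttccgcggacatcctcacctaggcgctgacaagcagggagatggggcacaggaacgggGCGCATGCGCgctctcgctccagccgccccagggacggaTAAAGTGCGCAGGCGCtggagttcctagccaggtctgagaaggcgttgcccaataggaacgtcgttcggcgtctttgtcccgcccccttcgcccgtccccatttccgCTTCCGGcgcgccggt
Cox7a1: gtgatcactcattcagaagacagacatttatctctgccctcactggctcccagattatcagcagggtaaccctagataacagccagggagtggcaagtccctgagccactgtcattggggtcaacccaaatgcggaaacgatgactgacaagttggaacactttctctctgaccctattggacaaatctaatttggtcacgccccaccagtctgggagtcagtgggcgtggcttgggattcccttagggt
The Ndufb2 window (chr6:39592315-39592564, plus strand) has estrogen-related receptor letters at -181 and the CRE at -14. The Ndufs5 window (chr4:123718187-123718436, minus strand) has estrogen-related receptor letters at -228 and NRF1 letters at -98, both read on the other strand. The Cox6a1 window (chr5:115348959-115349208, minus strand) has NRF1 letters at -162, which fit on both strands, and at -117, on the other strand. It also has GABPA letters on the other strand at -16 and NKX letters at -123, which share 1 base with the second NRF1 match. The Cox7a1 window (chr7:30183921-30184170, plus strand) holds none of the 7.

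Over the 77 member windows, 12 (15.6%) held NRF1 letters, beside 5.32% of 17492 protein-coding promoters of the same length, and 14 (18.2%) held GABPA letters, beside 9.15%. CRE letters stood in 4 (5.19%, beside 1.98%) and estrogen-related receptor letters in 4 (5.19%, beside 3.55%). NKX letters stood in 6 (7.79%, beside 9.50%), and YY1 and T-box letters in 0 each, beside 4.08% and 3.07%. Of the 64 members in this set that were lower in double KO hearts, 11 held NRF1 letters, and of the other 13, 1 did. For GABPA letters these counts were 12 and 2, for NKX letters 5 and 1, and for CRE and estrogen-related receptor letters 4 and 0 each. A link between letters and the change was not tested. A match is a description of letters, and its absence says only that they are not in this window.

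In Nkx2-5 KO hearts 14 of the 93 genes were lower than in WT hearts and 2 were higher, beside 2.59% and 1.84% of all genes. The members' median was -0.23, beside 0.0048 over all genes, and 87 members were below 0. Among genes between the members' quartile levels 6.38% were lower. The array medians of the members, as differences from the WT mean, were -0.25, -0.20 and -0.22 in Nkx2-5 KO hearts, against 0.037, 0.0082 and -0.047 in WT hearts, so the 2 groups did not overlap. On all 3 Nkx2-5 KO arrays 64 members read below all 3 WT arrays, beside 12.6% of all genes.

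Of the 14, 6 were assembly factors, out of 11 measured, whose median was -0.71. Ndufaf5 changed by -0.88 ± 0.14 (adjusted p = 0.0072) and Ndufaf1 by -0.86 ± 0.13 (adjusted p = 0.00614), and both were called under all 21 alternatives, as was Ndufb2. Ndufaf6, Ndufaf2 and Ndufaf7 changed by -0.85, -0.79 and -0.71, with calls that each ended under 2 to 10 alternatives (adjusted p 0.0508 to 0.168). Sdhaf1 ended under 6 (0.0518 to 0.136). Among subunits, Ndufa11, of the complex I membrane arm, read 11.66, 11.81 and 11.70 in Nkx2-5 KO and 12.27, 12.22 and 12.22 in WT hearts, and changed by -0.51 ± 0.08 (adjusted p = 0.00747), also under all alternatives. Atp5g1 (-0.56 ± 0.12, adjusted p = 0.0226), Uqcr10 (-0.49 ± 0.09, adjusted p = 0.0137), Atp5k (-0.43 ± 0.09, adjusted p = 0.0209), Cox7a2 (-0.36 ± 0.09, adjusted p = 0.0367), Ndufs6 (-0.34, adjusted p = 0.0454) and Atp5mpl (-0.32, adjusted p = 0.049) were lower too, and the calls of these 6 each ended under 2 to 13 alternatives (0.0508 to 0.18). By complex the medians were -0.27 in I, -0.34 in II, -0.30 in III, -0.12 in IV and -0.19 in V. The count fell to 4 called members without WT replicate 1 or without Nkx2-5 KO replicate 1, and to 7 without WT replicate 3 or Nkx2-5 KO replicate 3.

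In Tbx5 KO hearts 2 members were lower than in WT hearts, Ndufb2 and Ndufaf6, and 2 were higher, Cox4i2 and Ndufa4l2, beside 1.31% lower and 0.998% higher over all genes. Among genes between the members' quartile levels 2.01% were lower, so the members' share called lower is near the background. On all 3 Tbx5 KO arrays 52 members read below all 3 WT arrays, beside 11.4% of all genes. The members' median was -0.18, beside 0.0096 over all genes, with 79 below 0. Array medians were -0.11, -0.26 and -0.13 in Tbx5 KO hearts, all below the 3 WT arrays. Ndufaf6 changed by -0.65 ± 0.15 (adjusted p = 0.0497), a call that ended under 15 of 21 alternatives (0.0501 to 0.172). Assembly factors had a median of -0.45 with 1 of 11 called, and Ndufaf2 was -0.74 (adjusted p = 0.076). Without WT replicate 1, Tbx5 KO replicate 1 or Tbx5 KO replicate 3, 0 members were called, without WT replicate 3 1 and without Tbx5 KO replicate 2 2.

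**Figure D5:**
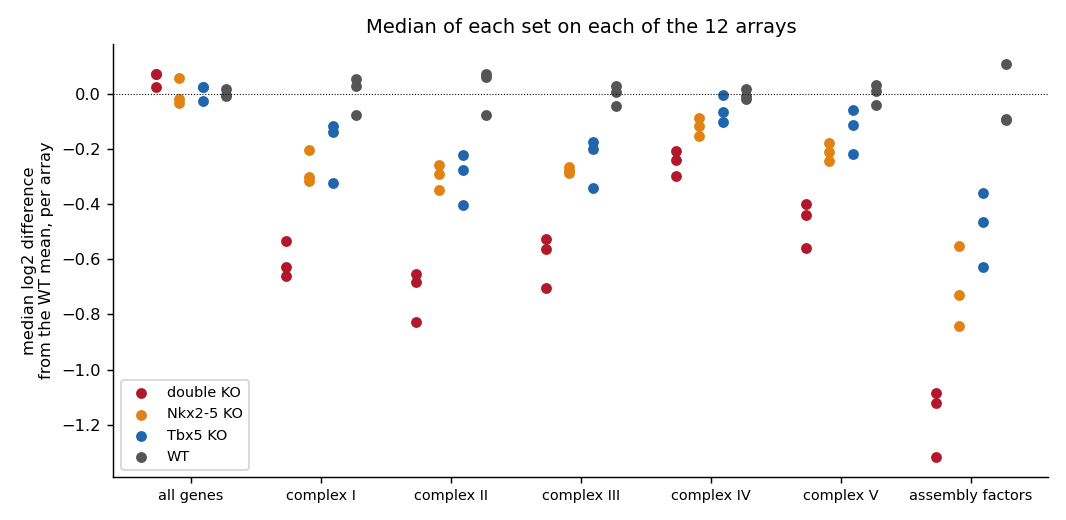
Each point is 1 array, placed at the median log2 difference from the WT mean (vertical axis) over all genes, the members of each complex or the assembly factors (horizontal axis), for double KO, Nkx2-5 KO, Tbx5 KO and WT hearts. Double KO arrays lie lowest in every set of members, between -1.32 and -1.08 for the assembly factors, while the medians of all genes lie between -0.033 and 0.071.

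The 3 comparisons with WT share the WT arrays, so their calls are set side by side only. All 14 members lower in Nkx2-5 KO hearts and both lower in Tbx5 KO hearts were also lower in double KO hearts, and 59 members were lower in double KO hearts alone of the 3 KO groups. The difference between the KO groups was tested directly. Against Nkx2-5 KO hearts, 22 members were lower and 0 higher in double KO hearts, beside 4.55% lower and 1.01% higher over all genes and 14.0% lower among genes between the members' quartile levels, with a members' median of -0.28. Against Tbx5 KO hearts 39 were lower and 0 higher, beside 7.86% lower and 2.87% higher over all genes and 24.0% lower between those levels, with a median of -0.35. On all 3 double KO arrays 63 members read below all Nkx2-5 KO arrays and 71 below all Tbx5 KO arrays, beside 13.7% and 14.5% of all genes. By complex, 12 of 41 members of complex I, 1 of 8 of II, 2 of 8 of III, 3 of 19 of IV and 4 of 17 of V were lower than in Nkx2-5 KO hearts, and 23, 2, 3, 5 and 6 were lower than in Tbx5 KO hearts.

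On the 3 double KO arrays 58 members read below all 9 other arrays, beside 7.53% of all genes. In 18 members the double KO was called lower than each of the other 3 groups, beside 3.25% of all genes. They were 11 of complex I, Sdhaf4, Uqcr10, Cox6a1, Cox7a2, Atp5e, Atp5h and Atp5k. Uqcr10 differed by -0.74 ± 0.09 between double KO and Nkx2-5 KO hearts (adjusted p = 0.000945) and by -0.91 ± 0.09 between double KO and Tbx5 KO hearts (adjusted p = 0.000104). Ndufb2 gave -0.59 ± 0.10 (adjusted p = 0.00574) and -0.99 ± 0.10 (adjusted p = 0.000111), and Sdhaf4 -0.81 ± 0.16 (adjusted p = 0.0139) and -0.93. The Sdhaf4 call against Nkx2-5 KO ended without Nkx2-5 KO replicate 1 or 2 (0.0603 to 0.0631). Ndufs5 and Ndufaf1 were lower in double KO than in Tbx5 KO hearts (-1.05 ± 0.17, adjusted p = 0.0023, and -1.04 ± 0.13, adjusted p = 0.000477). The count against Nkx2-5 KO was 7 when quantile normalized again or in a fit of only the arrays compared, and 5 to 14 without Nkx2-5 KO replicate 1, 2 or 3 or double KO replicate 2 or 3. The count against Tbx5 KO was 23 without Tbx5 KO replicate 1.

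Between the single KO groups 0 members were called, beside 2.39% of all genes in either direction, and Tbx5 KO minus Nkx2-5 KO had a members' median of 0.06. The non-additive term, the double KO change minus both single KO changes, asks whether the losses add up on the log2 scale, and limma called 0 members for it, with 8 at an unadjusted p under 0.05, beside 0.547% of all genes called. It was -1.33 ± 0.41 for Cox6a2 (adjusted p = 0.248), -1.33 ± 0.59 for Ndufa4l2 (adjusted p = 0.534), -0.50 ± 0.21 for Cox4i2 (adjusted p = 0.482) and -0.42 ± 0.13 for Uqcr10 (adjusted p = 0.248).

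Other genes of the pathway, from lists chosen by function, gave a fuller account of the double KO. Of 48 measured assembly, carrier and partner genes outside the symbol rule, 24 were lower and 1 higher in double KO hearts (median -0.37), 3 lower in Nkx2-5 KO and 1 lower in Tbx5 KO hearts. Over all genes 14.4%, 2.59% and 1.31% were lower in these 3 comparisons, so the count in Tbx5 KO hearts is near the background. Uqcc2, which assembles complex III, changed by -1.64 ± 0.16 (adjusted p = 3.41e-05) in double KO hearts and Cox19, which handles copper for complex IV, by -1.46 ± 0.18 (adjusted p = 0.00016). Cycs and Cyc1, cytochromes c and c1, read 12.72 to 12.78 and 11.25 to 11.72 in double KO, against 13.25 to 13.40 and 12.07 to 12.32 in WT hearts. Coq5, of ubiquinone synthesis, changed by -1.22 ± 0.14 (adjusted p = 7.27e-05), and Coq10a, a ubiquinone binding protein, rose by 0.93 ± 0.28 (adjusted p = 0.0295).

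Of 20 regulators of respiratory genes and mitochondrial DNA, 4 were lower and 2 higher in double KO hearts, with a median of 0.0059. These counts are near the shares of all genes, 14.4% lower and 9.05% higher. Tfb1m and Tfam, which serve the ribosomal RNA and the copying and reading of mitochondrial DNA, changed by -0.82 and -0.67. Hif1a and Pprc1 were lower too, by -0.44 and -0.41, and Ppara and Mef2c were higher, by 0.45 and 0.33. Ppargc1a, the coactivator of respiratory genes, read 10.30 to 10.92 in double KO and 10.69 to 11.05 in WT hearts, and the groups overlapped. The protein genes of the mitochondrial ribosome had 64 of 77 lower in double KO hearts (median -0.75), beside 14.4% of all genes, with 22 in Nkx2-5 KO (beside 2.59%) and 7 in Tbx5 KO hearts (beside 1.31%). Citric acid cycle and fatty acid oxidation genes had 22 of 32 lower in double KO (median -0.47), 4 in Nkx2-5 KO and 3 in Tbx5 KO hearts, beside the same shares of all genes. Idh3a, of the cycle, changed by -1.55 in double KO hearts. Lower values in double KO hearts thus extended over other nuclear genes for mitochondrial proteins, and no test of the respiratory chain genes against these lists was made.

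Markers of other cell types moved in some groups, and their counts in double KO against WT hearts stand beside 14.4% lower and 9.05% higher over all genes. Of 10 endocardium and endothelium markers 4 were lower, Npr3 (-1.24 ± 0.19, adjusted p = 0.000516), Tek (-1.19 ± 0.23, adjusted p = 0.00236), Emcn (-0.68 ± 0.23, adjusted p = 0.0479) and Nfatc1 (-0.62 ± 0.17, adjusted p = 0.0162), and Flt1 was higher (1.09 ± 0.22, adjusted p = 0.00333). The list's array means were 9.78 to 9.89 in double KO, 10.08 to 10.34 in Nkx2-5 KO, 9.79 to 9.93 in Tbx5 KO and 9.60 to 10.33 in WT hearts, and its median difference in double KO hearts was 0.14. In double KO hearts 0 of 8 erythroid markers were higher and 3 lower, with array means of 9.26 to 9.90 in double KO, 9.997 to 10.813 in Nkx2-5 KO, 10.23 to 10.28 in Tbx5 KO and 9.82 to 11.28 in WT hearts. Endoderm markers were 4 higher and 0 lower of 11, with means of 8.37 to 8.58 in double KO and 7.98 to 8.32 in WT hearts, and neural markers 3 higher and 1 lower of 10, with means of 7.87 to 8.05 in double KO and 7.56 to 7.70 in WT hearts. Cardiac muscle markers were 3 higher and 2 lower of 12, a share lower near that of all genes. Pharyngeal mesenchyme and neural crest markers were 0 higher and 2 lower of 9, Prrx2 and Twist1, with means of 8.19 to 8.22 in double KO and 8.13 to 8.30 in WT hearts. Skeletal muscle markers were 2 higher and 0 lower of 10, Actn3 and Myod1, with means of 7.90 to 7.98 in double KO and 7.71 to 7.78 in WT hearts. Trophoblast and decidua markers were 0 higher and 1 lower of 9 in double KO hearts. In Tbx5 KO hearts 3 genes of this list were higher, Prl3d3, Prl8a2 and Hand1, and 1 lower, Cited1, beside 0.998% and 1.31% of all genes. This list had means of 7.61 to 7.87 in Tbx5 KO hearts and 6.973 to 7.001 in WT hearts. Whether the signals of Hand1, Cited1 and the others came from heart cells or from placental tissue was not tested. The part of all these cell type markers in the members' changes was not tested.

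Sex-linked genes differed between groups. Xist read 6.44 to 8.16 in double KO, 6.59 to 7.03 in Nkx2-5 KO, 11.5 to 12.3 in Tbx5 KO and 11.5 to 11.9 in WT hearts, and the Y-linked Eif2s3y read 10.4 to 10.6 in double KO, 10.3 to 10.7 in Nkx2-5 KO, 5.13 to 5.68 in Tbx5 KO and 5.07 to 6.92 in WT hearts. Embryo sex and genotype thus cannot be told apart in comparisons of double KO or Nkx2-5 KO with WT or Tbx5 KO hearts. The 3 X-linked members, Ndufa1, Cox7b and Ndufb11, changed by -0.37 ± 0.08, -0.35 ± 0.08 and -0.26 ± 0.08 in double KO hearts (adjusted p = 0.00737, 0.00891 and 0.0404). The first 2 had adjusted p = 0.055 when quantile normalized again, and Ndufb11 missed the threshold under 13 alternatives (0.0529 to 0.508). In the limma fit of all probe sets, the dimmer Cox7b probe set changed by -0.64 ± 0.09 in double KO hearts (adjusted p = 0.000288). The dimmer Ndufb11 probe set was -0.22 ± 0.12 there (adjusted p = 0.226). Without X- and Y-linked genes in the fit, 72 members were called in double KO hearts and 16 in Nkx2-5 KO hearts. This fit drops the 3 X-linked members and keeps the same arrays, so it cannot separate sex from genotype for the other members.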

How the data were processed

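The 12 arrays were analysed, in the 4 groups of 3 that their labels give. Per the labels' protocols, PicoPure columns gave the total RNA, NuGEN Ovation reagents amplified it, and biotin-labelled cDNA went on Affymetrix arrays. The authors deposited log2 expression values for 35557 probe sets. Their summary and normalization software, not given in the sources used here, is unknown. Their scale was read from the values (3.21 to 14.7). Of the probe sets 21789 carry exactly 1 gene symbol, 1621 several and 12147 none listed, and keeping the brightest probe set per gene gave 19938 genes, all tested without a filter on dim signals. All 93 members matched the RefSeq gene table by Entrez number. Precision is limited by having 3 arrays a group.

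Group means of the 4 genotypes were estimated jointly from 12 arrays by limma 3.58.1 under R 4.3.3 (lmFit and eBayes, two-sided, 8 residual and 4.51 prior degrees of freedom), after it had been tested on simulated data. Tables and plots used Python 3.11.15 with matplotlib 3.10.9, numpy 2.4.6 and pandas 2.3.3. The members and gene lists were chosen with earlier results of these data known, so neither they nor their directions are independent evidence. Named genes are the tissue-type isoforms and their partners, the called members up to the 12 largest changes each way against WT and 8 each way otherwise, the extremes of each complex, X-linked members and members with disagreeing probe sets. Any other gene named was picked with its values known. The 21 alternatives were other scalings, variance settings, array weights, probe set and gene filters, only the arrays compared, a replicate block and leaving out each array.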

Additional observations from a re-analysis of the deposited data

How the results depend on the processing

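Against WT, the double KO count of 75 called members was 61 to 87 under the other scalings, fits and filters, and 66 to 75 when 1 array was left out, with 71 in the fit with a replicate block. The Nkx2-5 KO count of 16 was 31 with an intensity trend, 33 with array weights, 10 with the replicate block and 4 to 20 when 1 array was left out. The Tbx5 KO count of 4 was 9 with the trend, 7 with weights and 0 to 4 when 1 array was left out. The count of 22 for double KO minus Nkx2-5 KO was 7 when quantile normalized again, 34 with the trend, 7 with only the arrays compared, 13 with the replicate block and 5 to 20 when 1 array was left out. The count of 39 for double KO minus Tbx5 KO was 27 to 57 under the other scalings, fits and filters and 23 to 40 when 1 array was left out. The count of 0 for Tbx5 KO minus Nkx2-5 KO was 1 when quantile normalized again, with the trend, with the mean of all probe sets of a gene and with the replicate block, 7 with weights, 3 over genes above the median level and 0 to 2 when 1 array was left out. The count of 0 for the non-additive term was 0 to 1 when 1 array was left out. The cause of these shifts was not tested.

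Deviations from the group means, across genes, correlated at -0.27 to 0.211 (median -0.013) between arrays of the same number in different groups. Between arrays of different numbers they correlated at -0.26 to 0.261 (median 0.017). These values show no pairing by array number but cannot exclude one. Over 106 changes of named members and 21 alternatives, 0 changed direction among called values, 139 lost and 31 gained a call. A fit without X- and Y-linked genes, and so without the X-linked members, was chosen after seeing the data. It called 16, 3 and 72 members for Nkx2-5 KO, Tbx5 KO and double KO against WT. Median changes by complex in double KO hearts were -0.47, -0.75, -0.42, -0.23 and -0.31 for complexes I to V when quantile normalized again, and -0.75, -0.91, -0.71, -0.33 and -0.60 after centring every array on its median. The fit of only the arrays compared could not be made for the non-additive term, which needs all 4 groups.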

Other observations

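A further 6 probe sets carry a respiratory chain symbol beside a second symbol and were outside the members, and their changes were adjusted over all 35557 probe sets. Both probe sets of Ndufb4, an accessory subunit of complex I, and its near copy Ndufb4b changed by -1.43 ± 0.10 in double KO against WT hearts (adjusted p = 7.31e-05 and 7.12e-05). In Nkx2-5 KO hearts they changed by -0.61 ± 0.10 (adjusted p = 0.028) and -0.57 ± 0.10 (adjusted p = 0.0293), and in Tbx5 KO hearts they were -0.45 (adjusted p = 0.0844) and -0.44 (adjusted p = 0.083). The probe set shared by Ndufs5 and its copy Ndufs5-ps changed by -0.74 ± 0.10 in double KO hearts (adjusted p = 0.00129). The 3 probe sets of Cox7c, a small subunit of complex IV, and Gm12338 were -0.050, -0.058 and -0.030 in double KO hearts and none was called (adjusted p 0.571 to 0.784). Genes with near-identical copies share such probes, so the gene that gave the signal is uncertain.

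Of the 18 members with several probe sets, the calls in double KO against WT hearts differed among probe sets in 3 genes (Sdhaf4, Ndufb11 and Uqcrb), and within each of the 18 the differences had 1 sign. In Nkx2-5 KO and Tbx5 KO hearts the calls differed in 0 genes each, and the sign was shared in 17 and 16 genes.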
